A study of Mus musculus with 2 samples.

Results

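The genes of foam cells and lipid-associated macrophages were examined in the macrophages of dyslipidemic mice with 2 syndromes. They were the 10 rows of the deposited gene table named Trem2, Spp1, Gpnmb, Cd9, Plin2, Fabp4, Fabp5, Pparg, Lgals3 and Lipa, out of 54532 genes. All of the mice were male ApoE-/- mice on the C57BL/6J background, which lack apolipoprotein E and have high blood lipids, and the label gives their age as 6 weeks. Mice of the Phlegm-Dampness Retention (PDR) syndrome had 4 weeks of high-fat diet. Mice of the Spleen and Kidney Yang Deficiency (SKYD) syndrome had propylthiouracil, which blocks the making of thyroid hormone, at 10 mg/kg per day for 4 weeks and then 2 weeks of high-fat diet. Syndrome, drug, diet time and age therefore cannot be told apart. Aortas were digested with trypsin, cells were sorted on F4/80 and CD11b, and the cells of 5 mice were pooled into 1 library per group. With a single pooled library on each side there is no replicate check and no p-value, and each difference below is one between the library labelled PDR and the library labelled SKYD.

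A foam cell is a macrophage that has taken up so much lipoprotein that droplets of cholesteryl ester fill its cytoplasm, and it is the characteristic cell of the atherosclerotic plaque. Lipid-associated macrophages form a related state, found in plaques, in obese fat and in fatty liver, in which the lipid-sensing receptor TREM2 is prominent. Lipid that enters by endocytosis is split in the lysosome by acid lipase, carried through the cytosol by fatty acid-binding proteins, stored in droplets coated by perilipin 2, and sensed in the nucleus by PPARγ. Such cells also secrete osteopontin and galectin-3 and carry the membrane proteins CD9 and GPNMB.

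The libraries held 23086889 reads on genes for PDR and 25427863 for SKYD, recovered as whole reads from FPKM (fragments scaled to gene length and to library size). A gene with no read may still have up to 3, a share of 1.3e-05% in PDR and 1.18e-05% in SKYD. Reads of Apoe, which the genotype deletes in both groups, numbered 17336 and 3618, and since a gene total cannot show the exons involved, this gene does not check the genotype. The sorted cells were checked against 18 macrophage markers, all of which were above a mean of 1 FPKM. Adgre1, the gene of F4/80, had 6639 reads in PDR and 7551 in SKYD, and Itgam, the gene of CD11b, had 1043 and 1803. The macrophage markers took 3.57% of reads in PDR and 6.53% in SKYD, most of them from Lyz2, and without it 0.597% and 1.18%. Markers of other cells had reads as well, with 0.389% for B cell markers in PDR against 0.0733% in SKYD, and 0.051% for T cell markers in PDR against 0.317% in SKYD. Hepatocyte markers took 0.43% in PDR and 0.187% in SKYD, and neutrophil markers 0.345% and 0.254%. In such mixed RNA, fewer cells of a type and less RNA per cell cannot be told apart.

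Of the foam cell genes, the fatty acid-binding protein genes Fabp4 and Fabp5 stood farthest apart between the libraries, both higher in SKYD. They encode small cytosolic carriers of fatty acids and lie near each other on chromosome 3 of GRCm38, Fabp5 at chr3:10012548-10016607 on the plus strand and Fabp4 at chr3:10204088-10208576 on the minus strand, with 187480 bases between them. Their coding sequences are related, and reads of the one could be counted to the other only where their sequences match. Over 396 aligned coding bases of the longest coding transcripts, 240 were identical (60.61%), and the longest identical run was 12 bases, well short of a 100-base read. The first 180 coding bases, from the GENCODE M21 transcripts of GRCm38, show this, written 5′ to 3′ with the bases that are identical in the gapped alignment in capitals.
Fabp4: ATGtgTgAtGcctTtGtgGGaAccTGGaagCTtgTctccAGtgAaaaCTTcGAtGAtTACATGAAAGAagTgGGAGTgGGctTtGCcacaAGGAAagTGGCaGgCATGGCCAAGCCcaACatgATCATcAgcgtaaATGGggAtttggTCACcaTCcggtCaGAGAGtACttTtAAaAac
Fabp5: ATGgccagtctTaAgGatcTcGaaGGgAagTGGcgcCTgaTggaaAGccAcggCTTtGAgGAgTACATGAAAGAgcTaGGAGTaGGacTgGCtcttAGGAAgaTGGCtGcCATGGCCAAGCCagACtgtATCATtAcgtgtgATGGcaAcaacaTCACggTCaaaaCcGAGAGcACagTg

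Lgals3 was the most abundant of these genes, and Gpnmb the least. In the PDR library the deposited FPKM was 717.7 for Lgals3, 138.2 for Cd9, 107.2 for Plin2, 72.5 for Spp1, 28.2 for Lipa, 26.5 for Fabp5, 23.0 for Fabp4, 5.02 for Pparg, 3.93 for Trem2 and 1.31 for Gpnmb. Neighbours in this order had separate 95% counting intervals (exact Poisson limits on the reads), except Lipa and Fabp5. In the SKYD library the order was Lgals3 at 809.9, Cd9 at 252.6, Plin2 at 153.6, Spp1 at 102.1, Fabp4 at 99.5, Fabp5 at 64.1, Lipa at 28.4, Trem2 at 6.84, Pparg at 4.66 and Gpnmb at 1.29. Here the intervals of Spp1 and Fabp4 overlapped. On the deposited length, Fabp4 and Fabp5 thus lay below Lipa in PDR and above it in SKYD, and Trem2 lay below Pparg in PDR and above it in SKYD. Of the 10 genes, 7 lay above the median mean level of the tested genes, 6.18 FPKM.

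**Figure D1:**
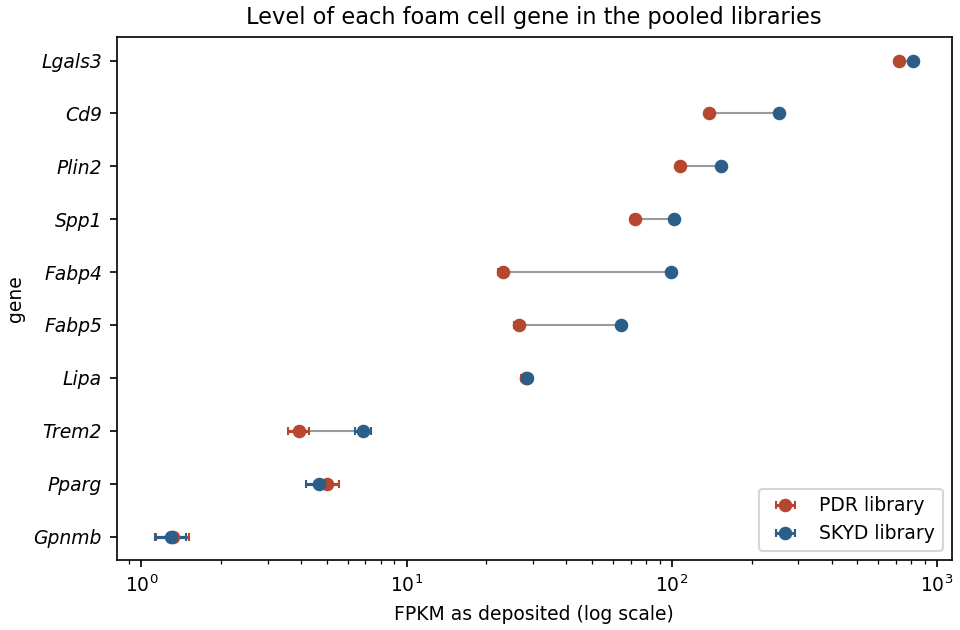
FPKM of each foam cell gene (log axis) in the PDR library and the SKYD library, 1 pooled library each. Bars are 95% exact Poisson intervals on the reads and cover counting error only. The points of Fabp4 (23.0 and 99.5) and Fabp5 (26.5 and 64.1) are farthest apart, and those of Lipa, Pparg and Gpnmb lie together.

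Differences were taken as log2(FPKM + 1) in PDR minus that in SKYD, so that a value below 0 is higher in SKYD, over the 10399 genes whose mean FPKM reached 1. All 10 foam cell genes were among these tested genes, and each had at least 1 FPKM in both libraries. In SKYD 8 were higher, and in PDR 2 were. More than 2-fold higher in SKYD were 2, Fabp4 and Fabp5, where 6.91% of all tested genes were that far apart in this direction. In the opposite direction 0 of the foam cell genes passed 2-fold, where 7.38% of all tested genes did. The median difference of the 10 genes was -0.50, beside -0.0035 over all tested genes, of which 50.4% were lower in PDR. Without Fabp4 and Fabp5, the median of the other 8 genes was -0.33. For each difference a 95% exact (Clopper-Pearson) interval was set from the share of the gene's reads that fell in PDR, and it covers counting error only. It lay below 0 for 7 of the genes and held 0 for Lipa, Pparg and Gpnmb, and 25.5% of all tested genes had an interval that held 0.

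Macrophage markers moved the same way as the foam cell genes. Of the 18, 13 were higher in SKYD, 5 of them more than 2-fold, and their median was -0.61. Below that median lay 4 of the 10, Fabp4, Fabp5, Cd9 and Trem2, and above it lay the other 6. When the differences were centred on the macrophage markers, the median of the foam cell genes was 0.11, higher in PDR, and the medians of the 7 pathway lists that are below 0 in the paragraphs that follow also came out above 0. With that centring 22.8% of all tested genes passed 2-fold in PDR and 3.26% in SKYD, against 7.38% and 6.91% as given above. The macrophage markers did not move as one. Lyz2, the lysozyme of myeloid cells and the most abundant of them, differed by -0.90, Adgre1 by -0.10, and Csf1r, the receptor of macrophage colony-stimulating factor, by 0.35. The part that macrophage content has in the differences was not tested.

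**Figure D2:**
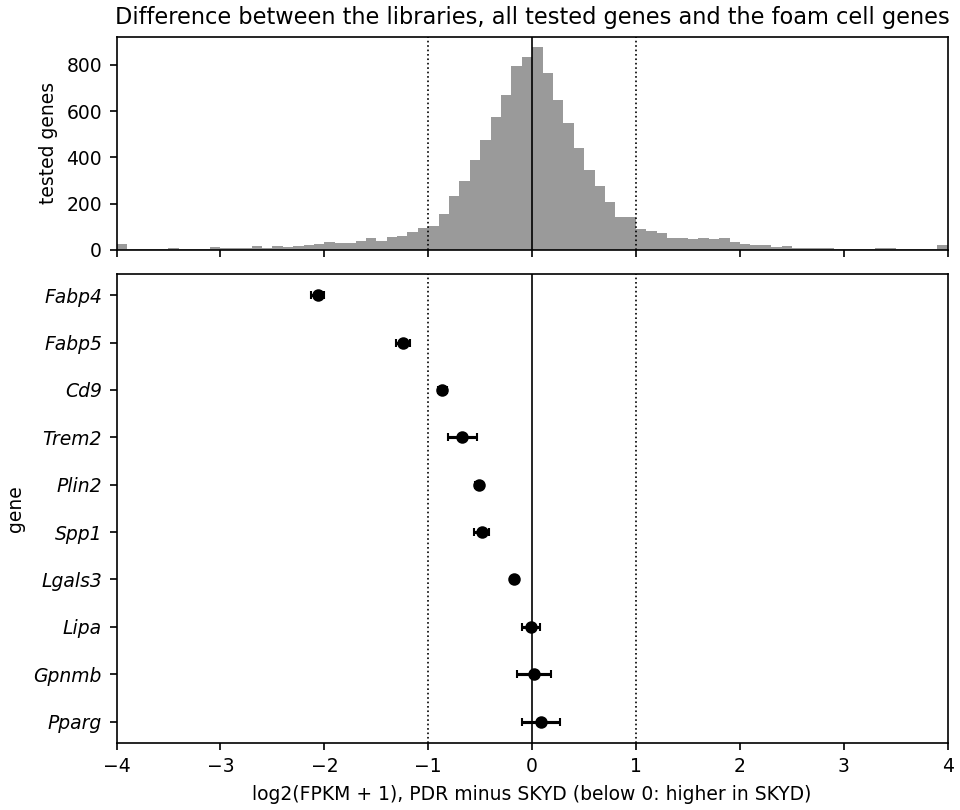
Differences in log2(FPKM + 1), PDR minus SKYD, as a histogram over the 10399 tested genes (top, genes beyond the axis counted in the outermost bars) and for each foam cell gene with its 95% exact counting interval (bottom). Dotted lines mark 2-fold. Fabp4 at -2.07 and Fabp5 at -1.24 lie outside them, and the other 8 genes lie inside.

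The carriers of fatty acids came first by size. Fabp4 (ENSMUSG00000062515), also called aP2, is a carrier of macrophages, adipocytes and capillary endothelium and a classical target gene of PPARγ. It had 2427 reads and 23.0 FPKM in PDR, and 11167 reads and 99.5 FPKM in SKYD. The difference was -2.07 (95% CI -2.13 to -2.00), and FPKM was 4.32-fold higher in SKYD (95% CI 4.14 to 4.52). Among the tested genes, 1.91% had a lower value than Fabp4. Its rank was in the top 13.6% of detected genes in PDR and in the top 3.92% in SKYD.

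Fabp5 (ENSMUSG00000027533), the epidermal form that macrophages also make, had 2219 reads and 26.5 FPKM in PDR and 5718 reads and 64.1 FPKM in SKYD. Its difference was -1.24 (95% CI -1.31 to -1.18), or 2.42-fold in FPKM (95% CI 2.31 to 2.54). Of the 100-base windows of the Fabp5 transcript, 9.01% also occur in the genes Gm14328 or Gm6166, so reads there could have been counted to either, and for Fabp4 the share was 0%. The balance of both genes also differed. For each Fabp5 read there were 1.09 Fabp4 reads in PDR (95% CI 1.03 to 1.16) and 1.95 in SKYD (95% CI 1.89 to 2.02).

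The neighbours of these genes on chromosome 3 had few reads or went the other way. Fabp9 and Pmp2, carriers of the testis and of myelin, had 0 reads in both libraries and can show no difference, Fabp12 had 0 and 5, and Gm9833, which lies between Fabp5 and Fabp4, had 31 in PDR and 42 in SKYD. Next to the cluster, Impa1, an inositol phosphatase, had 2144 reads in PDR and 1775 in SKYD, and Zfand1 had 467 and 374. Of the fatty acid-binding protein list, which leaves out Fabp4 and Fabp5, 5 of 9 genes were tested, 3 higher in PDR and 2 higher in SKYD, with a median of 0.21. Dbi, an acyl-CoA-binding protein of another family that the list includes, had 10963 and 18255 reads and a difference of -0.64, and without it 3 of 4 were higher in PDR. Fabp1, the liver form, went the other way, with 5320 and 2307 reads and a difference of 1.29, and Fabp2, the intestinal form, by 0.66. Hepatocyte markers moved with Fabp1. Fabp1 is itself on that list. Without it, 16 were tested, 15 were higher in PDR, the median was 1.81, and they took 0.407% of reads in PDR and 0.178% in SKYD, led in level by Apoa2. Fabp6 also had 0 reads in both libraries.

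Adipocytes and endothelial cells are other known sources of Fabp4, and most of their markers had few reads. Of the adipocyte list, Lep (leptin) had 0 reads in both libraries, Adipoq (adiponectin) had 13 in PDR and 3 in SKYD, and Plin1 had 10 and 12. Cfd (adipsin) had 0 and 36 and Cidec, a droplet protein, had 15 and 42, both with more reads in SKYD as Fabp4 had. The 11 adipocyte markers together took 0.00963% of reads in PDR and 0.00316% in SKYD, and 2 were tested, Car3 and Pck1, both higher in PDR. These 2 carried the sum, and the other 9 markers had 165 reads in PDR and 234 in SKYD. The endothelial list took 0.00334% in PDR and 0.00229% in SKYD. Cdh5, the cadherin of endothelial junctions, had 30 and 9 reads, Kdr had 9 and 15, and Robo4 had 0. Pecam1, which leukocytes also express, was the only endothelial marker tested, with 569 and 400 reads. Without it the endothelial list had 201 reads in PDR and 182 in SKYD. The part of adipocyte or endothelial RNA in the Fabp4 difference was not tested.

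Macrophages of the body cavities and the lung were also looked at. Most peritoneal macrophage markers were, like Fabp4 and Fabp5, higher in SKYD. Of 13 tested, 12 were higher in SKYD, the median was -0.94, and they took 0.161% of reads in PDR and 0.389% in SKYD. That median was -1.66 where a mean FPKM of 5 was required and -0.33 when centred on the macrophage markers. Alox15, the lipoxygenase of resident peritoneal macrophages and the highest of these in level, differed by -1.53. The peritoneal markers did not move as one. They ranged from -3.45 for Cxcl13 to 0.0050 for Timd4, and Gata6 differed by -0.33, nearer to 0 than the macrophage marker median of -0.61. Markers of fibroblasts and of the mesothelium, which lines the body cavities, moved the same way, with 6 of 6 tested higher in SKYD, a median of -1.47, and 0.00855% and 0.0313% of reads in PDR and SKYD. Dcn (decorin) was the highest of them. Of these 6, Upk3b, Dpt and Lum passed the level filter only through SKYD, so that their direction was set by it, and the other 3 had a median of -1.38. That median is the value of Krt19, which is also on the alveolar list that follows and is higher in SKYD there too. The median of the 6 was -0.57 without a filter on FPKM and -2.43 with no pseudocount. Alveolar macrophages carry much Fabp4 and Pparg. Of their markers, which include Lpl and Atp6v0d2 of the lipid-associated list below, 7 were tested, 2 higher in PDR and 5 in SKYD, with a median of -0.73. Of these 7, Atp6v0d2 passed the level filter only through SKYD, so that its direction was set by it, and the other 6 had a median of -0.71. The summed share of the alveolar markers was 0.413% in PDR and 0.28% in SKYD, mostly from Chil3, which was higher in PDR by 0.86, and without it 0.0371% and 0.0799%, higher in SKYD. Ear2 held 4981 of the 8562 reads left in PDR and 13817 of the 20325 left in SKYD. Marco, like Chil3, was higher in PDR, by 0.84. Krt79 had 0 reads in both. The part of these cells in the foam cell gene differences was not tested.

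Lipid storage was represented by Plin2 (ENSMUSG00000028494, chr4:86648386-86670060, minus strand), which coats the lipid droplets of macrophages and is protected from breakdown when bound to them. Plin2 had 8841 reads and 107.2 FPKM in PDR and 13487 reads and 153.6 FPKM in SKYD. The difference was -0.52 (95% CI -0.55 to -0.48), 1.43-fold in FPKM (95% CI 1.40 to 1.47), and 17.6% of the tested genes had a lower value. It was inside 2-fold and stood on the other side of the macrophage marker median from Fabp4.

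Other genes of droplets and neutral lipids went both ways. Of the 25 listed, 17 were tested, 8 higher in PDR and 9 in SKYD, with 0 and 2 more than 2-fold and a median of -0.03. Of the 17, 3 passed the level filter only through PDR and 1 only through SKYD, and the other 13 had a median of -0.05. Hilpda, an inhibitor of triglyceride breakdown on the droplet, had 563 and 2078 reads, the highest level of the list and its largest difference, -1.75 (95% CI -1.88 to -1.62). Hsd17b11, another droplet protein, differed by -1.26. Pnpla2, the triglyceride lipase ATGL, differed by -0.93, with 1411 and 2927 reads. Hilpda and Pnpla2 are inhibitor and enzyme of the same step, and both had more reads in SKYD.

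Lysosomal release of cholesterol and fatty acids is the work of Lipa (ENSMUSG00000024781, chr19:34492318-34527474, minus strand), the acid lipase. Lipa had 1964 reads and 28.2 FPKM in PDR and 2105 reads and 28.4 FPKM in SKYD. Its difference was -0.01 (95% CI -0.10 to 0.08), with FPKM 1.01-fold higher in SKYD (95% CI 0.947 to 1.07). A 2-fold difference lies outside that interval, although the spread between mice is unknown. Of 24 other genes of lysosomal lipid breakdown, 22 were tested, 5 higher in PDR and 17 in SKYD, with 0 past 2-fold and a median of -0.22. Lamp1, a protein of the lysosomal membrane and the highest in level, differed by -0.07. Psap, the precursor of the saposins that help degrade sphingolipids, had 10209 and 20307 reads and a difference of -0.90, the largest of the list, and Hexa, a subunit of hexosaminidase, differed by -0.77. Of the 22, 1 passed the level filter only through SKYD, and the other 21 had a median of -0.11. Lipa stood nearer to 0 than the median of its list. When centred on the macrophage markers it did not, with 0.60 for Lipa and a median of 0.39 for the list.

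Among the membrane proteins, Trem2 (ENSMUSG00000023992, chr17:48346401-48354147, plus strand) is the receptor for lipids and apoptotic cells that defines the lipid-associated state. It had few reads, 456 in PDR and 846 in SKYD, which gave 3.93 and 6.84 FPKM. The difference was -0.67 (95% CI -0.81 to -0.53), and FPKM was 1.74-fold higher in SKYD (95% CI 1.55 to 1.96). Without a pseudocount the log2 ratio was -0.80, since adding 1 to a low FPKM shrinks the difference. Trem2 was in the top 35.6% of detected genes in PDR and in the top 23.4% in SKYD. Centred on the macrophage markers it came to -0.06.

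The receptor signals through the adaptor DAP12, encoded by Tyrobp, and the kinase Syk. In the list of this complex and its signalling, all 19 genes were tested, 10 higher in PDR and 9 in SKYD, and the median was 0.05. More than 2-fold apart were 2, both higher in SKYD. Of the 19, 1 passed the level filter only through PDR and 1 only through SKYD, and the other 17 also had a median of 0.05. Tyrobp was far more abundant than Trem2, with 2908 FPKM in PDR and 4333 in SKYD and a difference of -0.58 (95% CI -0.59 to -0.56). Ms4a6d, a four-span protein of myeloid cells, had 437.9 and 731.8 FPKM and a difference of -0.74. The largest differences were those of Trem1, a related activating receptor that amplifies inflammation, at -1.18, and of Card9, a signalling adaptor, at -1.11.

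Cd9 (ENSMUSG00000030342, chr6:125460266-125494791, minus strand) encodes a tetraspanin, a protein that organises patches of the membrane, and marks lipid-associated macrophages in fat. With 6635 reads in PDR and 12906 in SKYD, its FPKM was 138.2 and 252.6. The difference was -0.87 (95% CI -0.91 to -0.82) and 8.39% of the tested genes had a lower value. FPKM was 1.83-fold higher in SKYD (95% CI 1.77 to 1.88), short of 2-fold. The strand setting of the counting is not given in the sources used here. The antisense gene Gm28809 that overlaps Cd9 had 62 and 63 reads, and Gm26728, also on the other strand, shares 10.5% of the 100-base windows of the Cd9 transcript and had 12 and 0. Platelets and B cells also carry CD9. Of the 7 platelet markers tested, 6 were higher in PDR and the median was 0.34. Of the 7, Tubb1, Treml1 and Gp5 passed the level filter only through PDR, and the other 4 had a median of 0.12. Gp1bb had 0 reads in both libraries. The exception was Pf4, with 3690 and 26049 reads, a gene that macrophages can express too. The summed platelet share was 0.0224% in PDR and 0.107% in SKYD with Pf4, and 0.00638% and 0.0043% without it. The platelet median turned to -1.26 where a mean FPKM of 5 was required. Of the B cell markers, 8 of 8 tested passed 2-fold in PDR, with Cd79b highest in level and a median of 2.22. The part of platelets or B cells in the Cd9 difference was not tested.

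Of 12 other tetraspanins, all tested, 3 were higher in PDR and 9 in SKYD, and the median was -0.31. Cd63, a tetraspanin of late endosomes and lysosomes, had 1157 and 3589 reads and a difference of -1.48 (95% CI -1.57 to -1.39), and Tspan3 differed by -1.19. The most abundant, the pan-leukocyte Cd53, differed by -0.32, and Cd81, a close relative of Cd9, by -0.50.

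Gpnmb (ENSMUSG00000029816, chr6:49036546-49070929, plus strand), a glycoprotein that rises in macrophages with loaded lysosomes, was barely above the level filter. It had 201 reads in PDR and 210 in SKYD, or 1.31 and 1.29 FPKM. The difference was 0.01 (95% CI -0.15 to 0.18), and the ratio of FPKM, SKYD over PDR, was 0.982 (95% CI 0.805 to 1.20). Gpnmb ranked in the top 52.8% of detected genes in PDR and the top 46.6% in SKYD, by far the lowest of the foam cell genes.

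The secreted proteins were both abundant. Spp1 (ENSMUSG00000029304, chr5:104435118-104441050, plus strand) encodes osteopontin, a matrix protein and cytokine that draws in and holds macrophages. It had 2808 reads and 72.5 FPKM in PDR and 4204 reads and 102.1 FPKM in SKYD. The difference was -0.49 (95% CI -0.56 to -0.42), or 1.41-fold in FPKM (95% CI 1.34 to 1.48). The unclassified gene Gm42793, which overlaps Spp1 on the same strand and shares 5.82% of its 100-base windows, had 0 and 2 reads. Bone cells are another rich source of osteopontin, and most of their markers were at 0. Of 11 bone and cartilage markers, 7 had 0 reads in both libraries, among them Bglap (osteocalcin), Ibsp (bone sialoprotein) and Sp7, the others being Bglap2, Phex, Acan and Col2a1. The list took 0.00116% of reads in PDR and 0.000586% in SKYD. Alpl had 237 of the reads in PDR and 36 in SKYD, and without it the list had 30 reads in PDR and 113 in SKYD, among them Runx2 with 29 and 57 and Col1a1 with 1 and 55. Of the osteoclast markers, Calcr and Oscar had 0 reads in both libraries, and Ctsk had 9 and 15. Dcstamp, a protein of cell fusion, had 0 reads in PDR and 89 in SKYD, and Itgb3 had 42 and 84. Acp5, which lipid-laden macrophages share with osteoclasts, was the highest of them, and the 4 tested had a median of 0.18, with summed shares of 0.021% in PDR and 0.0303% in SKYD, and 0.00502% and 0.00396% without Acp5. That median turned to -0.16 without a filter on FPKM. The part of bone cells or osteoclasts in the Spp1 difference was not tested.

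Osteopontin binds CD44 and several integrins. Of 8 receptor genes 5 were tested, 2 higher in PDR and 3 in SKYD, and the median was -0.04. Itgb1 was the highest in level and differed by 0.47, and Cd44 differed by -0.29. The largest differences were -1.32 for Itgb5, with 296 and 921 reads, and 0.64 for Itga4.

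Lgals3 (ENSMUSG00000050335, chr14:47367751-47386160, plus strand) encodes galectin-3, a sugar-binding protein also known as Mac-2, and ranked in the top 0.569% of detected genes in PDR and the top 0.434% in SKYD. Its reads were 31323 and 37612 and its FPKM 717.7 and 809.9. The difference was -0.17 (95% CI -0.20 to -0.15), and FPKM was 1.13-fold higher in SKYD (95% CI 1.11 to 1.15). Lgals3 carried 63.9% of the summed FPKM of the foam cell genes in PDR and 53.2% in SKYD. The sum was 1124 FPKM in PDR and 1523 in SKYD with Lgals3, and 405.8 and 713.2 without it. The list of other galectins holds 9 genes, among them Lgals3bp, which encodes a galectin-3-binding glycoprotein and is not a galectin, and 4 were tested, 2 in each direction, with a median of 0.10. Without Lgals3bp, 3 were tested, 2 higher in PDR and 1 in SKYD, with a median of 0.21. Lgals1, the most abundant, differed by 0.39 and Lgals9 by -0.58, and these 2 were also the largest differences.

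The regulator Pparg (ENSMUSG00000000440, chr6:115360951-115490399, plus strand) encodes PPARγ, the nuclear receptor that responds to fatty acids and turns on lipid uptake and efflux genes. Pparg had 348 reads in PDR and 344 in SKYD, or 5.02 and 4.66 FPKM. Its difference was 0.09 (95% CI -0.09 to 0.27), and the ratio of FPKM, SKYD over PDR, was 0.929 (95% CI 0.798 to 1.08). Fabp4, one of its known targets, differed by 4.32-fold in the same libraries. Of 15 other target genes, 13 were tested, 6 higher in PDR and 7 in SKYD, with 1 more than 2-fold higher in SKYD and a median of -0.07. Some are on other lists too, Cd36 and Lpl on the lipid-associated list below, Lpl and Abcg1 on the alveolar list, and Acsl1 on the droplet list. Of the 13, 2 passed the level filter only through SKYD and 1 only through PDR, and the other 10 had a median of -0.04. Klf4, the gene past 2-fold, had 0.98 FPKM in PDR and passed only through SKYD, so that its direction was set by the filter. The most abundant were Acaa2 and Ech1, enzymes of fatty acid oxidation, with differences of -0.16 and -0.37. The largest were those of Klf4, a transcription factor of alternatively activated macrophages, at -1.02, and Cyp27a1, the sterol hydroxylase, at 0.77. Of 14 partner genes, 6 were tested, 2 higher in PDR and 4 in SKYD, with a median of -0.14 and 0 past 2-fold. Nr1h2 and Nr1h3, which encode the liver X receptors, differed by 0.05 and -0.11, Rxra, the partner with which PPARγ binds DNA, by -0.55, and Med1, a coactivator, by 0.55.

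The wider set of genes known from lipid-associated macrophages lay mostly on the SKYD side, at about the same place as the foam cell genes. Of 27 listed, 24 were tested, 3 higher in PDR and 21 in SKYD, with 2 and 5 more than 2-fold and a median of -0.58, beside the macrophage marker median of -0.61. Cd68 and Mertk are in both lists. Cstb, an inhibitor of cathepsins, differed by -0.17 and Cd68, a macrophage lysosomal protein, by -0.58. These were the most abundant. Atp6v0d2, a subunit of the proton pump, had 0 reads in PDR and 156 in SKYD, and was 48.9-fold higher in SKYD when the 3 reads that a count of 0 allows are set against it. That value leaves out the counting error of the 156 reads. This gene, among the 5 past 2-fold, passed the level filter only through SKYD, so that its direction was set by it. The other 23 tested genes had a median of -0.58. Cd63, given above with the tetraspanins, had the next largest difference. With Atp6v0d2 set to 3 reads in PDR the median of the list was unchanged at -0.58. Clec7a, the beta-glucan receptor Dectin-1, and Cst7, another cathepsin inhibitor, were more than 2-fold higher in PDR, at 1.23 and 1.04, and are named here because they were the only 2 to do so.

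**Figure D3:**
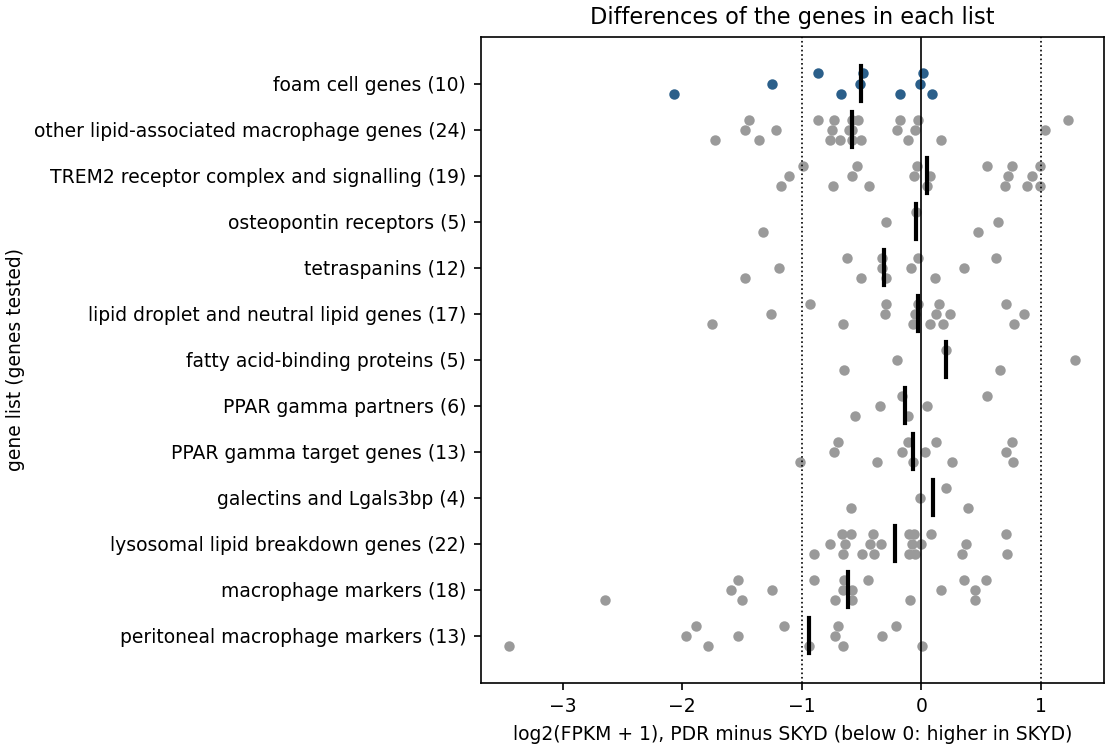
Differences in log2(FPKM + 1), PDR minus SKYD, for each tested gene (points) of the foam cell genes, the 10 pathway lists and the markers of macrophages and peritoneal macrophages. Black bars are medians, dotted lines mark 2-fold, and vertical offsets of points have no meaning. The foam cell genes (-0.50) and other lipid-associated macrophage genes (-0.58) have medians near that of macrophage markers (-0.61), and the lipid droplet genes (-0.03) and PPARγ targets (-0.07) have medians near 0.

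The order of levels depends on the gene length behind FPKM. For 9 of the 10 genes the deposited length equals all annotated exons joined, also those of transcripts that keep an intron, and for Fabp4 it equals the whole gene, 4489 bases, where the longest coding transcript has 896. The deposited length was 5.01 times that transcript for Fabp4, 4.55 times for Trem2, 3.61 times for Fabp5, was equal to it for Lipa, whose annotated exons join to 6780 bases against a deposited 2969, and was at most 1.86 times it, for Plin2, among the others. On the coding transcript length, Fabp4 had 115.3 FPKM in PDR and 498.7 in SKYD, Fabp5 had 95.7 and 231.8, and Trem2 had 17.8 and 31.1. Fabp4 then stood in place 4 in PDR and in place 2 in SKYD, behind Lgals3 at 1061. Fabp4 and Fabp5 stood above Lipa, and Trem2 above Pparg, in both libraries on this scale, and in SKYD the interval of Trem2 overlapped that of Lipa. Since a length is the same in both libraries, ratios between them do not depend on it, and the number of foam cell genes past 2-fold was 2 on either length.

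**Figure D4:**
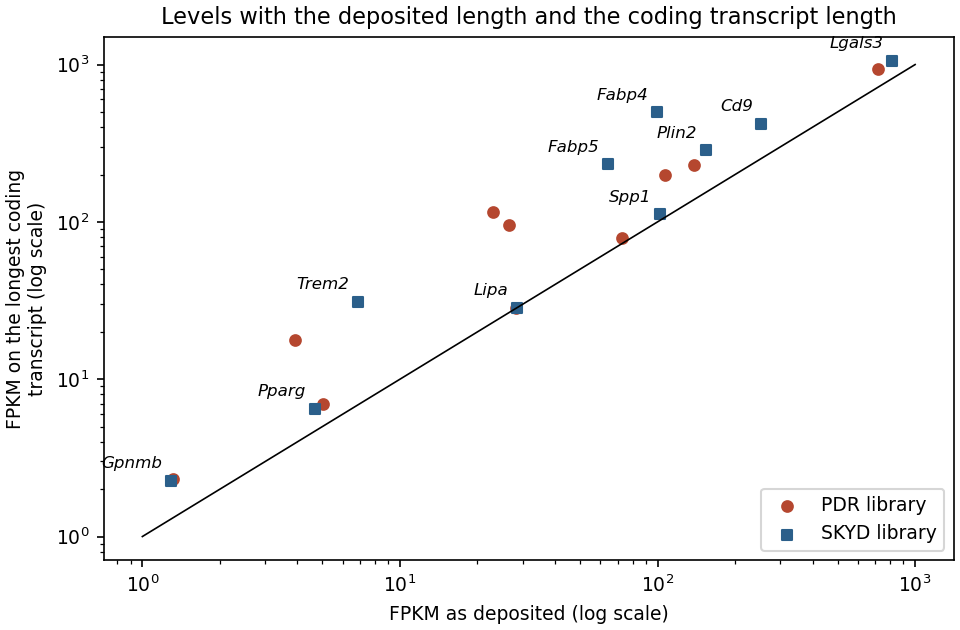
FPKM of the foam cell genes with the deposited gene length (x) and with the length of the longest coding transcript (y), both on log axes, in the PDR library and the SKYD library. The line marks equal values. Fabp4, Fabp5 and Trem2 lie farthest above it, and Lipa lies on it.

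Across the settings tried, Fabp4 was more than 2-fold higher in SKYD in each of 13, with values from -2.11 to -1.45. The 13 include the reported setting. No filter, a mean FPKM of at least 5 and protein-coding genes only change which genes are tested. These settings therefore repeat the reported value of a gene and add nothing to the counts given here. Fabp5 was past 2-fold in 12 of 13, and centring on the macrophage markers gave -0.63. Cd9 and Trem2 were below 0 in all 13 settings, and Spp1, Plin2 and Lgals3 in 12, where centring on the macrophage markers gave 0.12, 0.10 and 0.44. For Lipa 10 settings were below 0 and 3 above.

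**Figure D5:**
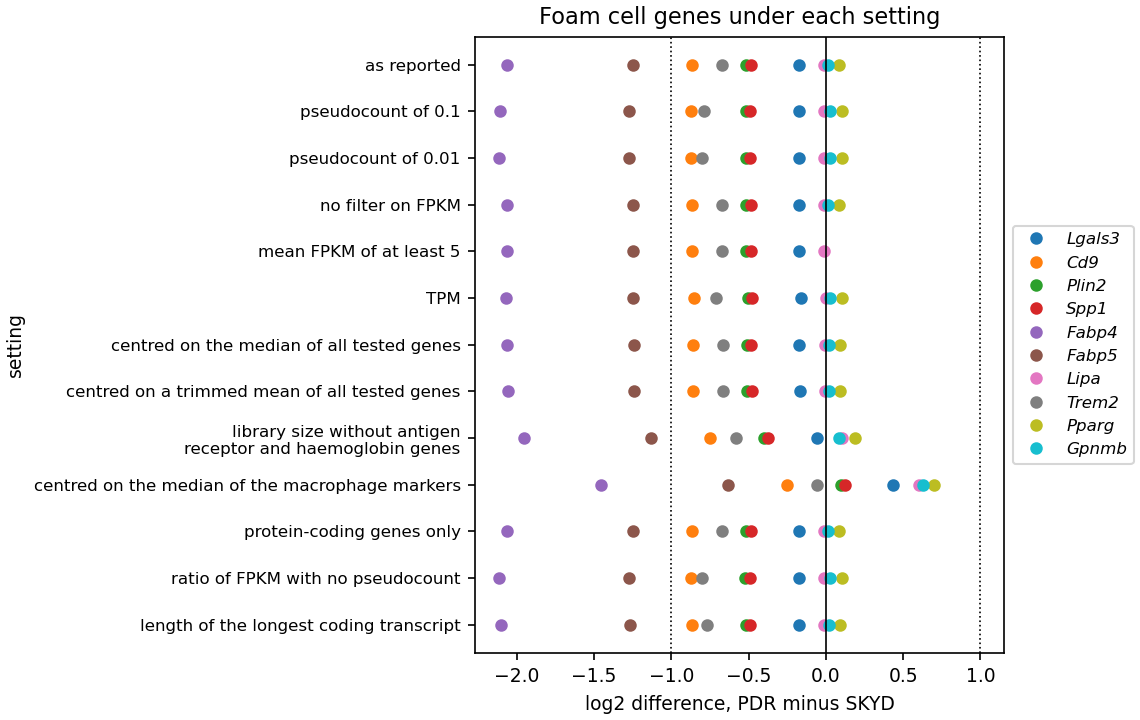
Log2 difference of each foam cell gene, PDR minus SKYD, under each setting. Dotted lines mark 2-fold. Values shift most when centred on the macrophage markers, where Fabp4 (-1.45) is the only gene past 2-fold, and Gpnmb and Pparg have no value where a mean FPKM of 5 is required.

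The promoters of the foam cell genes were also read for short motifs of 3 regulators of lipid and lysosomal genes. Of the 10 genes, 8 have a promoter in the RefSeq table of GRCm38.p6, with 11 windows of 300 bases in all (250 before the start of transcription and 50 after). CACGTG, the E-box bound by the lysosomal regulators TFEB and MITF, TGACTCA, the site of AP-1, and the PPAR site, a direct repeat of AGGTCA with 1 base between, were searched on both strands. A motif was found in 2 windows, CACGTG in Plin2 and TGACTCA in Gpnmb, and no matches overlapped. CACGTG occurs in 7.15% of the 32851 promoters of that table, TGACTCA in 5.20% and the repeat in 0.0396%, so a match describes the window only. The windows with a match, the only 2 of the 11, are shown from 80 bases before the start to 20 after it, 5′ to 3′ on the strand of the gene, with the motif in capitals. Plin2 is at chr4:86670040-86670139 on the minus strand and Gpnmb at chr6:49036438-49036537 on the plus strand.
Plin2: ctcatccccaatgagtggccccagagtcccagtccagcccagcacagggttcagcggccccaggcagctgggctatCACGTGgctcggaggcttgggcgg
Gpnmb: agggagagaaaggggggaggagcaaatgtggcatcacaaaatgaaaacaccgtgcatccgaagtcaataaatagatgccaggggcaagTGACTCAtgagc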

How the data were processed

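RNA of sorted macrophages was sequenced as 100-base paired-end reads in 1 pooled library per group. The authors filtered reads, aligned them with TopHat, counted reads per gene with HTSeq, and deposited FPKM for 54532 genes together with the gene length in bases. The submitters' processing notes name TopHat2 2.0.9, Bowtie2 2.0.6, HTSeq 0.6.1, DESeq 3.18.1 and the build mm9. The deposited positions instead match GENCODE M21 of GRCm38, with the same start and end for 98.33% of 54409 shared genes and for all 10 foam cell genes.

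Multiplying FPKM by gene length gave steps from which whole reads were recovered for 100% of the values above 0 in both libraries, within 0.001 read. Reads summed to 23086889 in PDR and 25427863 in SKYD, and the authors' scaling used sizes 1.02 and 0.983 times these sums. Differences were log2(FPKM + 1) for genes whose mean FPKM reached 1, and a difference was counted when past 2-fold, the fold that the study's methods set. Intervals are 95% and cover counting error only. No test was run, since 1 library per group gives no spread, and genes of like pattern were not sought over 2 libraries. The recovery of reads and the intervals were tested on simulated data.

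The members and the gene lists (10 pathway and 14 cell type lists) were chosen with earlier results of these data known. Named were all 10 members, the 2 genes of each pathway list with the highest mean FPKM and the 2 with the largest difference, the gene of each cell type list with the highest mean FPKM, and defining markers at 0 reads. Named outside this rule, after their values had been seen, were Apoe, the markers Adgre1, Itgam, Csf1r, Adipoq, Plin1, Cdh5, Kdr, Ctsk, Cfd, Cidec, Pck1, Runx2, Col1a1, Dcstamp, Itgb3, Upk3b, Dpt, Lum, Tubb1, Treml1 and Gp5, Lgals3bp, Lpl and Mertk, the neighbours of Fabp4 and Fabp5, the genes that overlap or share sequence with Cd9, Spp1 and Fabp5 (Gm28809, Gm26728, Gm42793, Gm14328 and Gm6166), and Clec7a and Cst7. Also named outside it, after their values had been seen, were Cxcl13, Timd4, Gata6, Ear2, Marco, Krt19, Cd36, Abcg1 and Acsl1. Of the cell type lists, neutrophil markers had a median of 0.75 (12 tested, S100a9 highest), T cell markers of -2.36 (11 tested, Cd8b1 highest) and smooth muscle markers of 0.71 (3 tested, Myl9 highest, with Tagln, Myh11, Cnn1 and Lmod1 at 0 reads in both libraries). In each of the hepatocyte, neutrophil and smooth muscle lists 1 gene passed the level filter only through PDR. The others of these lists had medians of 1.81, 0.65 and 0.56. Among the T cell markers 1 passed only through SKYD, and the other 10 had a median of -2.38. The hepatocyte marker Tf had no row of that name.

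Alternatives were pseudocounts of 0.1 and 0.01, no filter, a mean FPKM of at least 5, TPM, centring on the median or trimmed mean of all tested genes or on the macrophage markers, library sizes without antigen receptor and haemoglobin genes, protein-coding genes only, and thresholds of 1.5-fold and 4-fold. The FPKM ratio without a pseudocount, the coding transcript length, and marker lists without the genes that carry their sums (or, for hepatocytes, without Fabp1, for galectins, without Lgals3bp, and for fatty acid-binding proteins, without Dbi) were added after the data were seen. Coding sequences were aligned, since no protein table was used here. Columns left unused for want of a sample numbered 0. Biopython 1.88 made the alignment, matplotlib 3.10.9 the figures, and scipy 1.17.1 the intervals, with pandas 2.3.3 and numpy 2.4.6 under Python 3.11.15.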

Additional observations from a re-analysis of the deposited data

How the results depend on the processing

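The median difference of the foam cell genes was -0.50 as reported. It was -0.59 with a mean FPKM of at least 5, which left 8 genes, -0.39 with library sizes that leave out antigen receptor and haemoglobin genes, and 0.11 when centred on the macrophage markers. Those receptor and haemoglobin genes took 9.73% of reads in PDR and 5.47% in SKYD, and leaving them out moved the median of all tested genes to 0.098. The number of foam cell genes more than 2-fold higher in SKYD was 2 as reported, 4 at a 1.5-fold threshold, 1 at a 4-fold threshold and 1 when centred on the macrophage markers, and 0 were past these thresholds in PDR. Over all tested genes, 15.1% were past 1.5-fold in PDR and 15% in SKYD, and 1.87% and 2.08% were past 4-fold. The count of all genes past 2-fold ranged in PDR from 464 where a mean FPKM of 5 was required to 2375 when centred on the macrophage markers, and in SKYD from 339 with that centring to 1048 at a pseudocount of 0.01. As reported, the adipocyte median (1.66) came from 2 tested genes. That of bone and cartilage markers (1.37) came from 1, Alpl, which passed the filter only through PDR. Without a filter on FPKM, where most markers have few reads, medians changed sign for adipocyte (-0.040), bone and cartilage (-0.082), osteoclast (-0.16) and smooth muscle markers (-0.065), the galectin list (-0.19) and lipid droplet genes (0.0062). Where a mean FPKM of 5 was required, those of platelet (-1.26) and osteoclast markers (-0.76) did, and with TPM those of osteoclast markers (-0.11) and lipid droplet genes (0.012). The droplet median, -0.03 as reported, was also above 0 on the coding length (0.0025) and without receptor and haemoglobin genes (0.081), a setting that turned osteopontin receptors to 0.032 and PPARγ targets to 0.0045. Centred on the macrophage markers, the 7 pathway lists with a median below 0 all had one above 0, from 0.030 for other lipid-associated macrophage genes to 0.58 for droplet genes. The fatty acid-binding protein median, 0.21 as reported, was 0.0012 where a mean FPKM of 5 was required and 0.053 without a filter. That of the TREM2 list, 0.05 as reported, was 0.30 where a mean FPKM of 5 was required and 0.15 without receptor and haemoglobin genes. In these same settings the lysosomal median, -0.22 as reported, was -0.11, and it was -0.33 with TPM. The cause was not tested beyond what each setting changes by its making. No paired analysis was possible because each group has 1 library, and for the same reason no library could be left out. A gene with few reads, such as Gpnmb with 201 and 210, cannot show small differences at this depth.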
